A study of Mus musculus with 20 samples.

Results

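The genes described here encode the nuclear subunits of the respiratory chain and ATP synthase in mouse heart ventricle. They were taken by symbol, as every gene with its own probe set whose name begins with Nduf, Uqcr, Atp5 or Cox followed by a digit from 4 to 8, together with Sdha to Sdhd and Cyc1. This gave 72 genes of the 8251 genes with a probe set naming them alone: 29 of complex I, 2 complex I assembly factors that share the Nduf prefix (Ndufaf1 and Ndufaf4), 4 of complex II, 8 of complex III, 15 of complex IV and 14 of complex V. Each gene was read from its brightest probe set over the arrays with a group. Which genes belong was decided by name and not by any measured value.

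The study used Affymetrix arrays to ask what the tetracycline transactivator (tTA), expressed under the alpha MHC promoter, does to gene expression in the ventricle of FVBN mice. The alpha myosin heavy chain promoter is active in heart muscle cells, and tTA is a bacterial-viral fusion protein that activates genes placed behind tetracycline operators. Doxycycline (Doxy) keeps tTA from binding those operators, but a mouse given Doxy still makes the tTA protein. Total RNA was compared in FVBN control (2 arrays), FVBN + Doxy (4), tTA (8) and tTA + Doxy (5), and the FVBN groups lack the transgene. The labels give no age, sex, dose, duration or founder line and do not say that each array is a separate animal, so p-values measure the spread between arrays only. A further array titled without number or treatment entered no comparison.

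The respiratory chain sits in the inner mitochondrial membrane. Complex I takes electrons from NADH and complex II from succinate, both pass them to ubiquinone, complex III hands them to cytochrome c, and complex IV reduces oxygen to water. Complexes I, III and IV pump protons as they do so, and complex V uses the returning protons to make ATP, on which the beating heart depends. Complex IV in heart and skeletal muscle carries muscle isoforms of a few small subunits (Cox6a2, Cox7a1 and Cox8b) where most tissues carry Cox6a1, Cox7a2 and Cox8a.

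Values on single arrays are given as deposited intensities, on a linear scale. Differences between groups are on the log2 scale after quantile normalization, with their standard error (SE), from limma fitted to the 7453 brightest probe sets, and a gene passed at a limma adjusted p below 0.05 over all of them. Of the 72 genes, 65 were bright enough to be tested and 7 were not: Ndufa12, Ndufc2, Ndufs4, Cox5a, Cox6b2, Cox8a and Atp5j2. The cardiomyocyte markers Myl2, Myl3 and Tnni3 read group means of 4689 to 6121. The 9 tested cardiomyocyte markers summed to 35142 to 37480 in FVBN control and 35233 to 36684 in FVBN + Doxy. Their sum was 34503 to 38371 in tTA and 35078 to 38534 in tTA + Doxy. Of 10 skeletal muscle markers with a probe set, 6 were bright enough to be tested and 0 passed between genotypes (limma, 1 in each comparison at an unadjusted p below 0.05), with Pvalb at group means of 703 to 811 and Myh1 at the floor on every array, and the list summed to 1609 to 1651 in FVBN control, 1692 to 1820 in FVBN + Doxy, 1623 to 1755 in tTA and 1596 to 1680 in tTA + Doxy. Of 5 brown fat markers with a probe set 2 were tested, and Cidea rose in tTA + Doxy against FVBN + Doxy (0.51), while Ucp1, at group means of 41.9 to 45.3, was too dim to be tested. The brown fat list summed to 256 to 259 in FVBN control, 242 to 267 in FVBN + Doxy, 263 to 299 in tTA and 287 to 318 in tTA + Doxy. Mybpc3, 1 of 9 tested cardiomyocyte markers, rose with the transgene both without Doxy (0.22) and with it (0.29). The lowest of the 9 was Ckm, at -0.17 and -0.22. At an unadjusted limma p below 0.05, 1 of the 9 was lower with Doxy and 0 without it. Of the 9, 4 lay below 0 without Doxy and 3 with it, and 0 passed as lower in either comparison. The smooth muscle actin gene Acta2 fell in both (-1.27 and -0.66), 1 of 5 tested smooth muscle and pericyte markers, whose summed level was 732 to 781 in FVBN control, 622 to 786 in FVBN + Doxy, 462 to 585 in tTA and 516 to 685 in tTA + Doxy. The endothelial gene Emcn fell without Doxy (-0.28, 1 of 9 tested), and the other cell type lists held at most 1 gene that passed per comparison. Their part in the results was not tested. In tissue RNA, fewer cells of a type and less RNA per cell cannot be told apart.

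The labels do not say what the array numbers stand for. Each FVBN group and tTA + Doxy holds a run of numbers of its own, while tTA holds 6 arrays numbered 7288 to 7311 and the arrays 9310 and 9322. No number run holds more than 1 group, so genotype and Doxy cannot be told apart from whatever the numbers follow. The 3'/5' signal ratio of beta-actin, a measure of array quality, averaged 0.549 (SD 0.0082) in FVBN control and 0.509 (SD 0.0793) in FVBN + Doxy on the log2 scale. It averaged 0.323 (SD 0.11) in tTA and 0.362 (SD 0.0603) in tTA + Doxy. The beta-actin ratio therefore moved with genotype, and the results with it as a covariate are given for the respiratory chain genes that passed. The same ratio of Gapdh averaged 0.008 in FVBN control, 0.056 in FVBN + Doxy, 0.033 in tTA and 0.047 in tTA + Doxy. Both tTA means thus lay between the FVBN means, and the Gapdh ratio entered no fit.

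Without Doxy, 7 of the 65 tested respiratory chain genes were lower in tTA than in FVBN control and 0 were higher, where 2.82% of all tested probe sets passed, 1.82% as lower and 0.993% as higher. At an unadjusted limma p below 0.05, 18 were lower, against 8.55% of all tested, and 1, Cox8c, was higher. The 7 were Ndufa6, Ndufv3, Ndufb11 and Ndufb6 of complex I, Sdhb of complex II, and Cox6a1 and Cox7a2l of complex IV. None of the 8 complex III genes or the 13 tested complex V genes passed (limma, 2 and 1 of them at an unadjusted p below 0.05). Of the 65 genes 55 lay below 0, against 44.9% of all tested probe sets, and their median difference was -0.09 against 0.01 for all tested. After quantile normalization, groups did not overlap in 13 genes, each lower in tTA, and in 0 genes that were higher, where 6.06% and 6.68% of all tested probe sets did so in those directions. On the deposited values 34 genes were lower without overlap and 0 higher, where 7.5% and 6.43% of all tested did so.

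**Figure D1:**
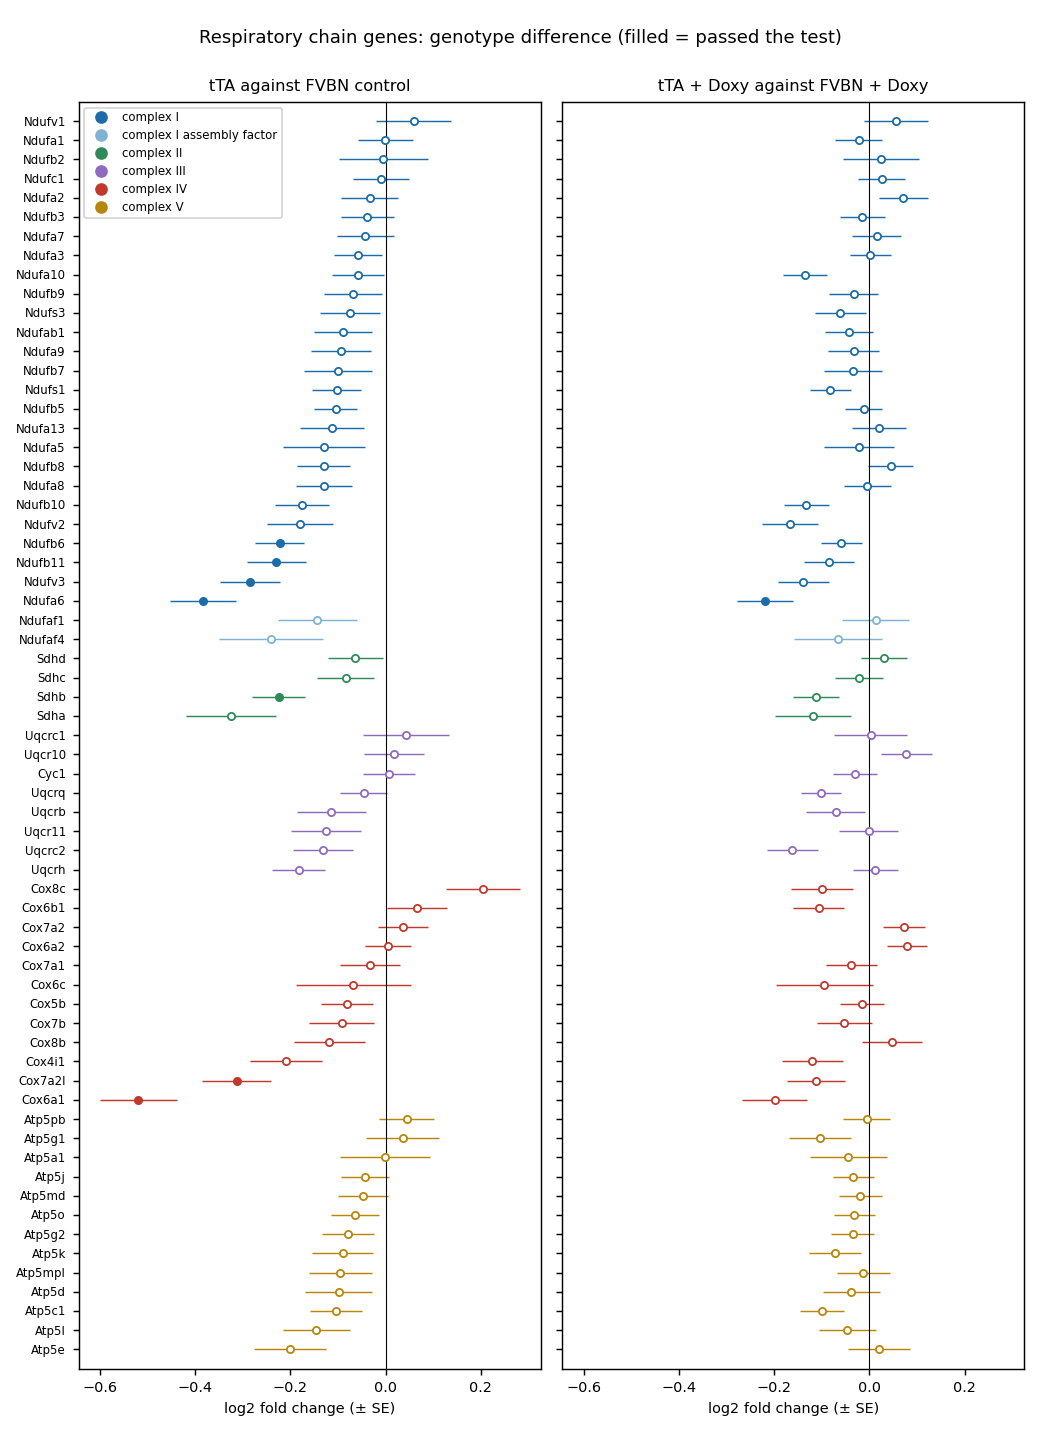
Log2 fold change with its SE for each of the 65 tested respiratory chain genes, in order of complex, in tTA against FVBN control (left) and tTA + Doxy against FVBN + Doxy (right). Filled points passed the limma test: 7 lie to the left of 0 without Doxy and 1, Ndufa6, with Doxy.

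These 7 calls rest on 2 FVBN control arrays. Without tTA arrays 9310 and 9322, 6 of the 7 passed, all but Ndufb11. Leaving out array 8177 or 8182 leaves 1 FVBN control array. Most of the 7 calls then ended, and calls over all tested probe sets became fewer as well. Without array 8177 the 7 differences ran from -0.51 for Ndufa6 to -0.19 for Ndufv3. Without array 8182 they ran from -0.55 for Cox6a1 to -0.23 for Sdhb. When the beta-actin ratio entered as a covariate, 0 passed (limma), and over all probe sets 0.362% did. The differences were then -0.32 for Ndufa6, -0.19 for Ndufv3, -0.18 for Ndufb11 and -0.22 for Ndufb6. They were -0.25 for Sdhb, -0.44 for Cox6a1 and -0.36 for Cox7a2l. The limma adjusted p ran from 0.0648 for Cox6a1 to 0.490 for Ndufb11. Scaling each array to a common median gave 19 lower genes of 65, and the deposited values with no further normalization gave 18, with 0 higher under either. Among all probe sets those scalings called 46 higher and 221 lower, and 69 higher and 207 lower, against 74 and 136 after quantile normalization. The 689 brightest tested probe sets outside the respiratory chain had a median of -0.08 and -0.06 under these scalings and 0.01 after quantile normalization, and the respiratory chain genes -0.21, -0.19 and -0.09.

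Complex I, NADH dehydrogenase, is the largest of the complexes, and 26 of its 29 genes were tested. In tTA against FVBN control 4 fell, 22 did not pass, and the median was -0.10. Ndufa6, an accessory subunit of the LYR protein family on the matrix arm, had the largest fall. Its deposited intensity was 449 and 520.3 on the FVBN control arrays, 422, 467, 443.5 and 399 on FVBN + Doxy, 331 to 396 with a median of 356 on tTA, and 414, 375, 368, 413 and 347 on tTA + Doxy. All 8 tTA arrays lay below both FVBN control arrays, and 3 of 5 tTA + Doxy arrays lay below every FVBN + Doxy array. The difference was -0.38 ± 0.07 (SE, limma adjusted p = 0.00224), a level 1.31-fold lower.

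Ndufv3, a small subunit of the NADH-binding module, read 678 and 567.8 in FVBN control, 554, 605, 582 and 560.1 in FVBN + Doxy, 461 to 527 with a median of 488 in tTA, and 595, 490, 501, 571 and 512 in tTA + Doxy. The tTA arrays were again the lower group with no overlap, and the difference was -0.29 ± 0.06 (limma adjusted p = 0.0148). Ndufb6, a membrane-arm accessory subunit, read 1646 and 1561 in FVBN control, 1339 to 1516 in FVBN + Doxy, 1154 to 1347 in tTA and 1295 to 1493 in tTA + Doxy, a fall of 0.22 on the log2 scale (limma adjusted p = 0.0173). Ndufb11, also of the membrane arm, read 1383 and 1345 in FVBN control and 1025 to 1121 in tTA, with 1190 to 1342 in FVBN + Doxy and 1049 to 1348 in tTA + Doxy. Ndufb11 was the least secure of the 7: its difference of -0.23 ± 0.06 passed at a limma adjusted p of 0.0468, and 17 of 31 alternative settings ended the call. In the other direction Ndufv1, which carries the FMN that receives electrons from NADH, was the only tested complex I subunit above 0, at 0.06 ± 0.08 (limma adjusted p = 0.765), with 3132 and 2992 in FVBN control and 2711 to 3156 in tTA. Both assembly factors lay below 0 and neither passed, Ndufaf4 at -0.24 ± 0.11 and Ndufaf1 at -0.14 ± 0.08 (limma adjusted p = 0.267 and 0.401).

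**Figure D2:**
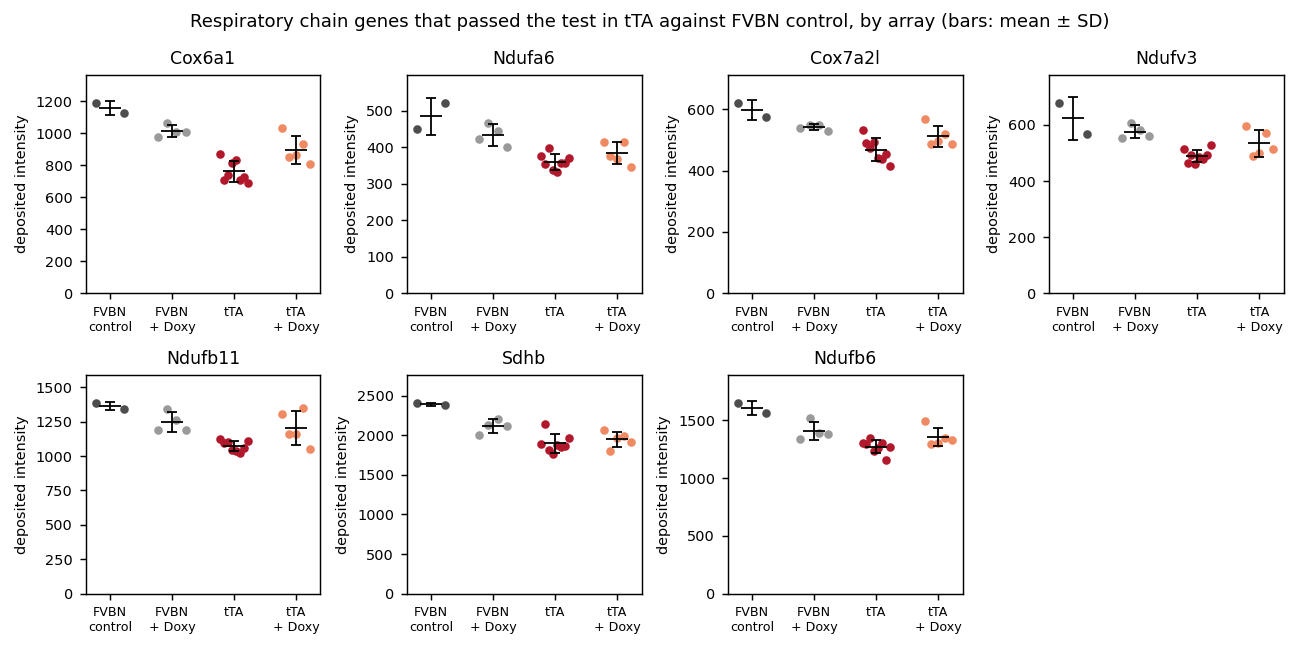
Deposited intensity on each of the 19 arrays (points) with the group mean and SD (bars) for the 7 genes that passed in tTA against FVBN control, on linear axes from 0. In each gene the 8 tTA points lie below both FVBN control points, and the tTA + Doxy points overlap the tTA points.

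To set genes that fell side by side, the sequence ahead of the start is shown for the first 3 of the 7 by number of calls and then by adjusted p. Each is 250 bases from RefSeq (GRCm38.p6), 5' to 3' on the gene's strand, with the letters of a searched motif in capitals. The Ndufa6 stretch is chr15:82354292-82354541 (minus strand), where the capitals mark GCATGCGC, a core of the binding motif of nuclear respiratory factor 1 (NRF1), a regulator of respiration genes, 83 bases before the start. In the Cox6a1 stretch, chr5:115348959-115349208 (minus strand), capitals mark the full palindromic form of the NRF1 motif, which holds GCATGCGC on both strands, 162 bases before the start, and CCGGAAG of ETS factors such as GABPA, on the opposite strand, 16 bases before it. The Ndufv3 stretch, chr17:31519865-31520114 (plus strand), holds none of the letters searched.
Ndufa6: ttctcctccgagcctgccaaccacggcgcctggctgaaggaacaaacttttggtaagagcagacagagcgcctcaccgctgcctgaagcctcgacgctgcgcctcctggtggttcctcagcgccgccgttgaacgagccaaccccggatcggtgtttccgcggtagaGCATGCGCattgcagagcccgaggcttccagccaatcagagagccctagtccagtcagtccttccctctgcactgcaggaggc
Cox6a1: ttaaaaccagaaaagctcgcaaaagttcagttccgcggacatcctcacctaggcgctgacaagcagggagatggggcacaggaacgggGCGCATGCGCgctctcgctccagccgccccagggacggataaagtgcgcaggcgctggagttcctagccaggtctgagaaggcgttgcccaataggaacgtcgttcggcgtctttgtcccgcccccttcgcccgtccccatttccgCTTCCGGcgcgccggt
Ndufv3: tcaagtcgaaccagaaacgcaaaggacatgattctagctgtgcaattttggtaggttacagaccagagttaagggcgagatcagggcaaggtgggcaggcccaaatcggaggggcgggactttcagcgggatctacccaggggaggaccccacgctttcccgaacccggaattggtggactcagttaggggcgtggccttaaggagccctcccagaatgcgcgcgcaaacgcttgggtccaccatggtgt
Promoter windows from 250 bases before to 50 after the start were found by gene number for 58 of the 72 genes. GCATGCGC, searched on both strands as all the motifs were, stood in 10 of the 58 (17.2%) and in 3.05% of 27025 genes in the table. The full palindromic form stood in 5 (8.62% against 1.07%). CCGGAAG stood in 16 (27.6% against 9.93%), the YY1 letters AAGATGGC in 8 (13.8% against 3.19%), TCAAGGTCA of estrogen-related receptors in 1, Sdhd (1.72% against 0.466%), and the TATA box letters TATAAA in 6 (10.3% against 15.7%). Of the 7 genes that fell, GCATGCGC stood in 3 (Ndufa6, Cox6a1 and Sdhb), CCGGAAG in 3 (Cox6a1, Ndufb6 and Sdhb), and none of the letters in 3 (Ndufv3, Cox7a2l and Ndufb11). A match of letters is a description of the sequence and not evidence of a bound site.

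Complex II, succinate dehydrogenase, is also an enzyme of the citric acid cycle. Its iron-sulfur subunit Sdhb fell in tTA and its 3 other subunits did not pass. Sdhb read 2401 and 2378 in FVBN control, 2001, 2128, 2210 and 2116 in FVBN + Doxy, 1762 to 2147 with a median of 1868 in tTA, and 2060, 1800, 1968, 1993 and 1909 in tTA + Doxy. The FVBN control arrays stood above every other array, and the difference for tTA was -0.22 ± 0.06 (limma adjusted p = 0.0285). Its probe set carries a suffix of probes shared between transcripts.

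Sdha, the catalytic flavoprotein, read 397.5 and 395 in FVBN control, 310, 335, 382 and 301 in FVBN + Doxy, 275 to 344 in tTA and 290.1, 272, 334, 382 and 294 in tTA + Doxy. Its difference of -0.33 ± 0.09 was larger than that of Sdhb, but it missed the threshold (limma adjusted p = 0.0647), and passed only just after median scaling (0.0466) and on unnormalized values (0.0499). The membrane anchors Sdhc and Sdhd, which hold the ubiquinone site, were at -0.08 ± 0.06 and -0.06 ± 0.06. All 4 subunits therefore lay below 0 in tTA, where 44.9% of all tested probe sets did, with a median of -0.15. Groups did not overlap for Sdha and Sdhb on the deposited or the quantile-normalized values, and for Sdhd on the deposited but not the normalized values, at 1770 to 1923 in FVBN control and 1552 to 1693 in tTA.

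Complex III, the cytochrome bc1 complex, had 8 tested genes, of which 0 passed in any of the 4 pairwise comparisons (limma). At most 2 in each had an unadjusted limma p below 0.05, all of them lower. Between genotypes 8.55% of all tested probe sets were lower at that p without Doxy and 8.87% with it. In the Doxy comparisons 11.8% in FVBN and 7.7% in tTA fell below it in either direction. The hinge subunit gene Uqcrh had the largest fall without Doxy, at -0.18 ± 0.05 (limma adjusted p = 0.0732). It read 1820.2 and 1865 in FVBN control, 1553, 1637, 1649 and 1482 in FVBN + Doxy, 1436 to 1601 in tTA and 1516 to 1696 in tTA + Doxy, so FVBN control stood above the other groups. Uqcrc2, a core subunit, was at -0.13 ± 0.06 without Doxy and -0.16 ± 0.05 with it (limma adjusted p = 0.299 and 0.0756). The other core subunit gene Uqcrc1 was at 0.04 ± 0.09 without Doxy. Cyc1, which carries the haem of cytochrome c1, was at 0.01 ± 0.05 on its brightest probe set, while its second probe set rose by 0.23 ± 0.06 (limma adjusted p = 0.0295), so the pair of Cyc1 probe sets disagreed. Of 15 tested second probe sets of 12 respiratory chain genes, this was the one that passed without Doxy, and 12 of the 15 had the sign of the brightest probe set.

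Complex IV, cytochrome c oxidase, held the largest change of all 65 genes. Cox6a1, the ubiquitous isoform of subunit VIa, read 1189 and 1129 in FVBN control, 977, 1064, 1011 and 1009 in FVBN + Doxy, 692 to 869 with a median of 734 in tTA, and 1033, 852, 867, 933.5 and 808 in tTA + Doxy. The tTA arrays lay below all 6 arrays without the transgene, and the tTA + Doxy arrays lay between, with 2 of 5 above every tTA array and 4 of 5 below every FVBN + Doxy array. The difference of tTA from FVBN control was -0.52 ± 0.08 (limma adjusted p = 0.00056), a level 1.43-fold lower. Across the 31 alternative settings it ran from -0.62 to -0.44, and the beta-actin covariate was the one setting that ended the call (-0.44, limma adjusted p = 0.0648). The Cox6a1 probe set is of a kind that can match several similar transcripts, and no second probe set named this gene alone.

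Cox7a2l, a relative of Cox7a2 known for linking complexes III and IV into supercomplexes, read 619.5 and 574 in FVBN control, 537.5, 548, 548.4 and 528 in FVBN + Doxy, 415 to 532 with a median of 465 in tTA, and 567.8, 487, 497, 519.8 and 485 in tTA + Doxy. All tTA arrays were below both FVBN control arrays, and the fall was 0.31 on the log2 scale (-0.31 ± 0.07, limma adjusted p = 0.018). Cox8c, an isoform known from testis, had the largest value above 0 among the 65 genes, at 0.20 ± 0.08 (limma adjusted p = 0.17). Its arrays overlapped, with 291 and 306 in FVBN control, 326 to 340.4 in FVBN + Doxy, 291 to 365 in tTA and 285 to 337 in tTA + Doxy. Cox6b2, the other isoform of restricted tissue, read 35.3 to 42.7 on every array and was too dim to be tested.

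The 3 muscle isoforms did not pass in any comparison, and 0 had an unadjusted limma p below 0.05, whereas of the 2 tested ubiquitous isoforms Cox6a1 fell in tTA and Cox7a2 did not pass. Cox6a2 read 5419 and 5443 in FVBN control, 4806, 5233, 5421 and 5043 in FVBN + Doxy, 5218 to 5666 with a median of 5394 in tTA, and 5340, 5289, 5423, 5623 and 5569 in tTA + Doxy. These groups overlapped, and the tTA difference was 0.01 ± 0.05 after quantile normalization, -0.02 after median scaling and -0.003 on unnormalized values. Cox6a2 ranked between 4 and 12 of the 12488 probe sets on every array, so quantile normalization sets its level almost wholly by that rank. Within an array the difference of Cox6a2 minus Cox6a1 was 2.29 ± 0.0063 (SD) on the 2 FVBN control arrays and 2.35 ± 0.09 on the 4 with Doxy, and 2.81 ± 0.12 on the 8 tTA arrays and 2.62 ± 0.10 on the 5 with Doxy. On these quantile-normalized values the tTA arrays lay above FVBN control by 0.53 and tTA + Doxy above FVBN + Doxy by 0.28. Neither pair of groups overlapped. Exact two-sided permutation p-values were 0.0444 and 0.0159, the smallest that 8 against 2 and 5 against 4 arrays allow, and 0.133 and 0.0952 after adjustment over the 12 pair tests, so neither passed. For tTA + Doxy against tTA the difference was -0.19 (exact permutation p = 0.0249, adjusted 0.0995), and for FVBN + Doxy against FVBN control 0.06 (exact permutation p = 0.4, smallest possible 0.133). With no further normalization the genotype differences were 0.61 without Doxy and 0.27 with it (exact permutation, adjusted p = 0.178 for each). The groups with Doxy then overlapped. Array 7399 of tTA + Doxy read 5340 for Cox6a2 and 1033 for Cox6a1, and array 8340 of FVBN + Doxy read 5421 and 1011.

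**Figure D3:**
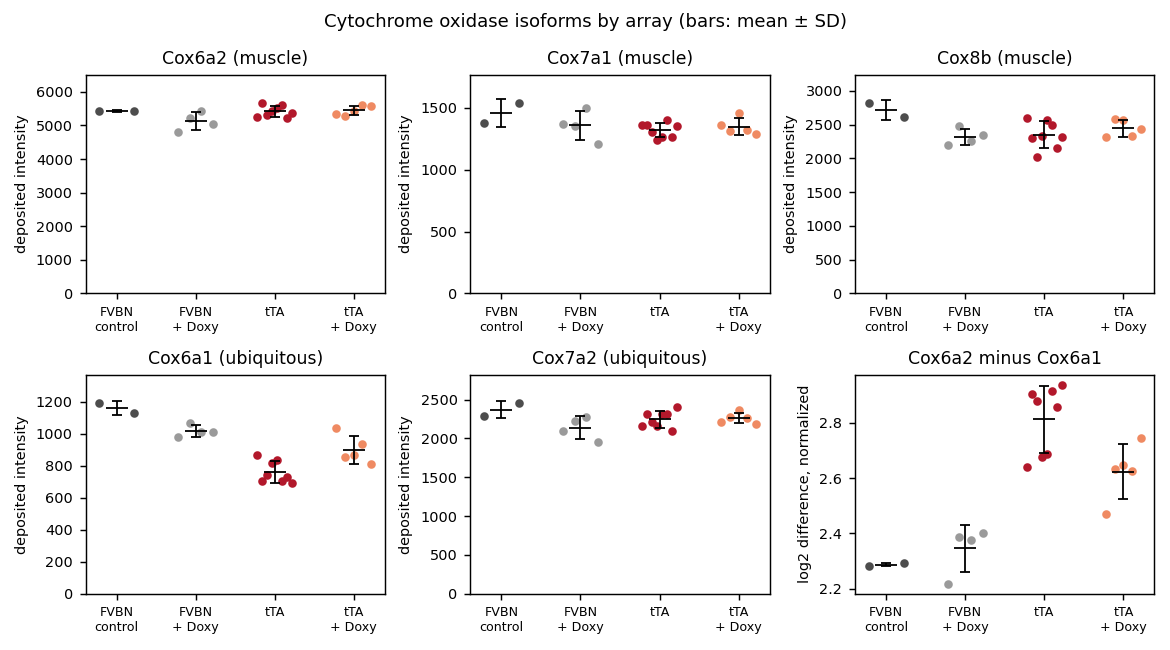
Deposited intensity on each array of 3 muscle isoforms and 2 ubiquitous isoforms of complex IV, with group mean and SD. The last panel gives Cox6a2 minus Cox6a1 within each array on the log2 scale after quantile normalization. Its axis does not start at 0. In the Cox6a1 panel all tTA points lie below every FVBN control and FVBN + Doxy point, and the last panel places tTA between 2.64 and 2.94.

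Cox7a1 and Cox7a2 moved less. Cox7a1 read 1377 and 1538 in FVBN control, 1209 to 1501 in FVBN + Doxy, 1239 to 1402 in tTA and 1290 to 1459 in tTA + Doxy, and its differences were -0.03 ± 0.06 without Doxy and -0.04 ± 0.05 with it. Cox7a2 was at 0.04 ± 0.05 and 0.07 ± 0.04, with 2293 and 2451 in FVBN control and 2089 to 2400 in tTA. After quantile normalization Cox7a1 minus Cox7a2 differed by -0.07 without Doxy (exact permutation p = 0.178). With Doxy it differed by -0.11 (exact permutation p = 0.0159, adjusted 0.0952). Both had the opposite sign to the Cox6a pair. On the deposited values the groups with Doxy overlapped in this pair. Array 8338 of FVBN + Doxy read 1351 for Cox7a1 and 2228 for Cox7a2, and array 7485 of tTA + Doxy read 1459 and 2361. Cox8b read 2818 and 2616 in FVBN control and 2020 to 2600 in tTA, with 2202 to 2472 in FVBN + Doxy and 2320 to 2588 in tTA + Doxy, differences of -0.12 ± 0.07 and 0.05 ± 0.06 that did not pass. Its partner Cox8a read 13.5 to 18.1 on every array, near the floor of 14.36, so their pair says little, and none of its 4 differences passed.

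Complex V, the ATP synthase, had 13 tested genes, and 0 passed in any of the 4 pairwise comparisons (limma). At most 1 in each had an unadjusted limma p below 0.05, against the shares of all tested given for complex III. Atp5e, the epsilon subunit of the central stalk, had the largest fall without Doxy, at -0.20 ± 0.08 (limma adjusted p = 0.177). It read 1978 and 1795 in FVBN control, 1504, 1642, 1543 and 1591 in FVBN + Doxy, 1418 to 1686 in tTA and 1482 to 1834 in tTA + Doxy. Among the 13 genes 11 lay below 0, where 44.9% of all tested probe sets did, and the median was -0.08. The highest was Atp5pb of the peripheral stalk, at 0.04 ± 0.06 (limma adjusted p = 0.756). Atp5g1, one of the genes for the c-ring, was at 0.04 ± 0.08.

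With Doxy given to both genotypes, 1 of the 65 genes was lower in tTA than in FVBN, Ndufa6, and 0 were higher, while 5.89% of all tested probe sets passed, 1.6% as lower and 4.29% as higher. At an unadjusted limma p below 0.05, 10 were lower, against 8.87% of all tested. Ndufa6 fell by 0.22 on the log2 scale (-0.22 ± 0.06, limma adjusted p = 0.0272), with all 5 tTA + Doxy arrays below all 4 FVBN + Doxy arrays after normalization. Of 31 alternative settings 9 ended the call: leaving out FVBN + Doxy array 8337, 8338 or 8340, or tTA + Doxy array 7485 or 7488, median scaling (-0.17, limma adjusted p = 0.146), no further normalization (-0.18, 0.110), the beta-actin covariate (-0.18, 0.115) and a fit over all probe sets (-0.22, 0.0592). Cox6a1 was at -0.20 ± 0.07 (limma adjusted p = 0.091), Ndufa10 at -0.14 ± 0.05 (0.0921), Ndufv3 at -0.14 ± 0.05 (0.134), Sdhb at -0.11 ± 0.05 (0.172) and Sdha at -0.12 ± 0.08 (0.413). With array weights, 6 genes passed as lower: Ndufa6, Ndufa10, Ndufb10, Ndufv3, Uqcrc2 and Cox6a1, and 9.34% of all tested probe sets then passed. After quantile normalization, groups did not overlap in 3 genes, Ndufa6, Ndufv2 and Uqcrc2, each lower, and in 0 that were higher, against 3.48% and 6.24% of all tested. On the deposited values 0 genes were lower or higher without overlap, against 2.78% and 6.96% of all tested. Of the 65 genes 48 lay below 0, where 56.1% of all tested did, and the median was -0.03 against -0.01.

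The genotype comparisons with and without Doxy share no array. Of the 65 genes 43 (66.2%) were below 0 in both, against 25.6% of all tested probe sets, and 5 were above 0 in both. The difference without Doxy was the further from 0 in 49 genes. Across the 65 genes the differences correlated at Pearson r = 0.521, a description over genes that share arrays and are not independent. The interaction, which is the Doxy difference in tTA minus that in FVBN, passed for 0 of the 65 genes and for 0.0134% of all tested. Its values included 0.32 ± 0.11 for Cox6a1, -0.30 ± 0.10 for Cox8c and 0.22 ± 0.10 for Atp5e (limma adjusted p = 0.246, 0.246 and 0.322), and 7 of the 65 genes had an unadjusted p below 0.05, as did 14.5% of all tested.

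**Figure D4:**
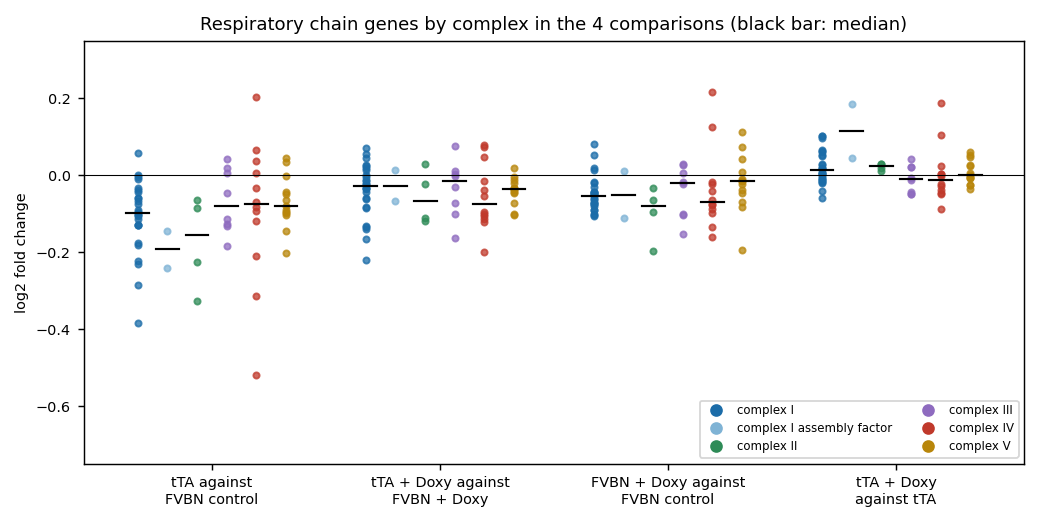
Log2 fold change of each tested respiratory chain gene (points) by complex in the 4 pairwise comparisons, with the median of each complex as a black bar. In tTA against FVBN control the 2 complex I assembly factors have the lowest median, at -0.19. Among complexes I to V the complex II median is lowest, at -0.15, and those of complexes I, III, IV and V lie between -0.10 and -0.07. With Doxy in both genotypes the medians of complexes I to V lie between -0.07 and -0.02.

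Doxy without the transgene was tested in FVBN + Doxy against FVBN control, which shares its 2 control arrays with the first comparison. Here 0 of the 65 genes passed, as did 0.0403% of all tested probe sets, and by unadjusted limma p below 0.05 Uqcrh (-0.15 ± 0.06) and Atp5e (-0.19 ± 0.08) were lower and Cox8c (0.22 ± 0.08) higher, where 11.8% of all tested fell below it. The median was -0.05 against 0.01 for all tested, and 51 genes lay below 0, against 46.4% of all tested. After quantile normalization, groups did not overlap in 13 lower and 4 higher genes, where 10.8% and 12.7% of all tested did so, and on the deposited values in 27 lower and 3 higher, where 13.6% and 11.5% did. Cox6a1, at -0.13 ± 0.09, and Sdha, at -0.20 ± 0.10, had values of the sign seen in tTA (limma adjusted p = 0.543 and 0.464).

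Doxy in mice with the transgene was tested in tTA + Doxy against tTA, which shares the tTA arrays with the first comparison. Of the 65 genes 0 passed, against 0.0671% of all tested, and the median was 0.005. The largest values above 0 were Cox6a1 at 0.19 ± 0.06 and Ndufaf4 at 0.19 ± 0.08 (limma adjusted p = 0.366 and 0.579), and by unadjusted p below 0.05 these and Ndufb11, Ndufb8 and Ndufv3 were higher, where 7.7% of all tested fell below it. Cox8c was lowest, at -0.09 ± 0.06.

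On single arrays the median deviation of the 65 genes from their mean over the 19 arrays was 0.09 and 0.05 in FVBN control, -0.004 to 0.06 in FVBN + Doxy, -0.05 to 0.01 in tTA and -0.05 to 0.02 in tTA + Doxy. Both FVBN control arrays therefore stood above all tTA arrays, whereas the FVBN + Doxy and tTA + Doxy arrays overlapped. The same median over all tested probe sets stayed between -0.01 and 0.01. Within groups the median SD of a respiratory chain gene was 0.08, as for all tested genes, and the median residual correlation across arrays between pairs of genes was 0.19 in complex I, 0.22 in complex II, 0.17 in complex III, 0.04 in complex IV and 0.03 in complex V, beside -0.002 for all tested genes, a description over genes that share arrays.

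**Figure D5:**
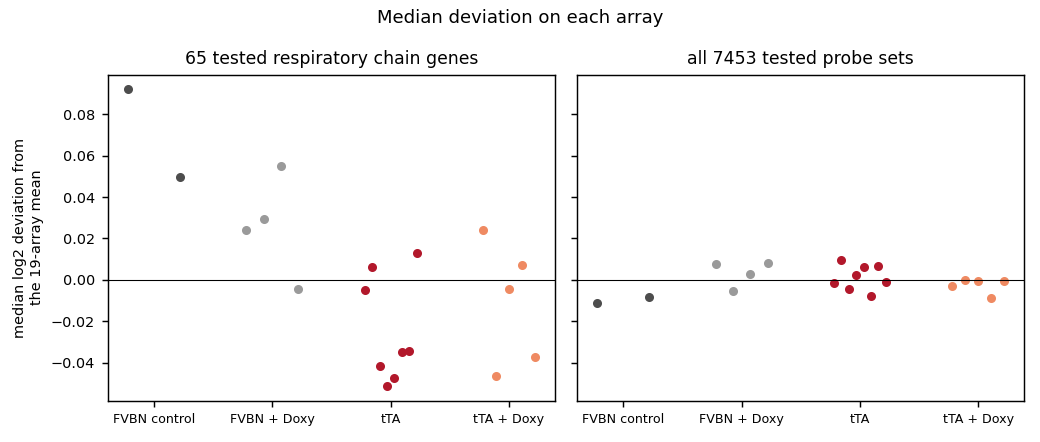
Median log2 deviation from the 19-array mean on each array (points), for the 65 tested respiratory chain genes (left) and all 7453 tested probe sets (right). On the left the 2 FVBN control arrays are at 0.05 and 0.09, and the 8 tTA arrays run from -0.05 to 0.01.

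Further genes of the pathway were read from 4 lists. Of 15 tested assembly factors and copper carriers, 12 lay below 0 in tTA against FVBN control, where 44.9% of all tested probe sets did, and 0 passed (limma). At an unadjusted limma p below 0.05, 1 was lower, against 8.55% of all tested. In tTA + Doxy against FVBN + Doxy 4 were higher, where 4.29% of all tested probe sets were: Sdhaf2 (0.29 ± 0.08), which adds flavin to complex II, Cox17 (0.25 ± 0.06), which delivers copper to complex IV, and the complex IV assembly genes Higd1a (0.20 ± 0.05) and Coa3 (0.19 ± 0.05), at limma adjusted p-values of 0.0169 to 0.0322. The same 4 were at -0.19, -0.17, -0.19 and -0.12 in FVBN + Doxy against FVBN control, which shares the FVBN + Doxy arrays, and at 0.12, 0.10, 0.05 and 0.08 in tTA + Doxy against tTA, and none passed in either. Uncalled genotype differences included Surf1 at -0.17 ± 0.06 without Doxy and Higd2a at 0.19 ± 0.07 with it. Of 13 tested electron carriers and ubiquinone genes, Coq10a was higher in tTA without Doxy (0.22 ± 0.05, limma adjusted p = 0.0278), where 0.993% of all tested passed as higher, and the cytochrome c gene Cycs, at -0.27 ± 0.09, did not pass (limma adjusted p = 0.107).

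Of 9 tested carriers and creatine kinases, Slc25a4, the ADP/ATP carrier of heart muscle, was the 1 gene higher in tTA without Doxy (0.21 ± 0.05, limma adjusted p = 0.0272, against the same 0.993%). Slc25a5, the ADP/ATP carrier of most other tissues, was at -0.25 ± 0.07 and missed the threshold (0.0519). Ckmt2, the mitochondrial creatine kinase of muscle, was the 1 gene lower in tTA + Doxy than in FVBN + Doxy (-0.26 ± 0.06, limma adjusted p = 0.0117, where 1.6% of all tested were lower) and was at -0.20 ± 0.07 without it (0.121). Of 9 tested transcriptional regulators 8 lay below 0 without Doxy, where 44.9% of all tested did, and none passed in any of the 4 comparisons (limma). Between genotypes 2 were lower without Doxy at an unadjusted limma p below 0.05, against 8.55% of all tested. With Doxy 2 were lower and 1 higher, where 8.87% of all tested were lower. Gabpa was at -0.19 ± 0.13 and Ppara at -0.22 ± 0.08 without Doxy, and Esrra at -0.18 ± 0.06 with it (limma adjusted p = 0.503, 0.147 and 0.066).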

How the data were processed

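The authors' deposited table holds 1 intensity value per Affymetrix probe set and array, on a linear scale; how probes were summarised and normalized is not given in the sources. Array medians lay between 60.7 and 62.5. A platform table linked 10833 of 12422 non-control probe sets to 1 gene, 396 to several and 1193 to none, and symbols were updated by gene number. A further 10 probe sets that name several genes hold respiratory chain symbols and were left out, and 19 of the 72 genes are read on probe sets whose suffix marks shared or less specific probes.

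In R 4.3.3 with limma 3.58.1, intensities of the 19 arrays with a group were quantile normalized, floored at 14.36 (percentile 10) and log2 transformed. A model of 4 group means was fitted to the brightest 60%, moderated with an intensity trend and robustly. P-values were adjusted by Benjamini-Hochberg within each comparison over all tested probe sets. Isoform differences were compared with exact permutation tests over arrays, with adjustment over 12 tests. Simulated data were used to test the fit. Figures used Python 3.11.15 and matplotlib 3.10.9.

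Genes named were those that passed in any comparison, the complex IV isoforms, complex II in full, the largest change each way per complex, and the leading genes of 4 further pathway lists, at most 3 uncalled a list. The respiratory chain was chosen as a subject, and the lists and tests were chosen, with earlier results of these data known; which genes belong to it was then decided by symbol alone. The number of arrays limits the precision. Alternatives were other scalings, floors and brightness limits, array weights, plain moderation, only the arrays compared, the beta-actin covariate, the mean over probe sets, and leaving out each array or tTA arrays 9310 and 9322. A planned display of protein sequences was not made.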

Additional observations from a re-analysis of the deposited data

Results flagged for a closer look

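In 8 of 105 groups of 4 to 8 arrays tested over the named genes and pairs, 1 array stood far from the rest of its group by Dixon's criterion, which chance alone meets in about 1 group in 20. On array 8337 of FVBN + Doxy, Cox6a2 read 12.17 on the log2 scale (12.38 on the other 3), Cox6a2 minus Cox6a1 was 2.22 (others 2.38 to 2.40) and Ndufa10 read 8.04 (others 8.11 to 8.13). Array 8338 of the same group had Ndufaf1 at 7.29, where the others had 7.13 to 7.15. In tTA + Doxy, array 7486 had Ndufaf4 at 6.09 (others 5.72 to 5.82) and Ndufa10 at 8.06 (others 7.93 to 7.96), and array 7424 had Uqcrc1 at 10.63 (others 10.89 to 10.98). In tTA, array 7292 had Sdhb at 11.08, where the others had 10.84 to 10.93. Without that array Sdhb still passed in tTA against FVBN control.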

How the results depend on the processing

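The count of genes that passed in tTA against FVBN control was 7 of 65. It was 19 after median scaling, 18 with no further normalization, 0 with the beta-actin covariate, and 2 to 8 over the settings that left out 1 array. For tTA + Doxy against FVBN + Doxy the count was 1, and it became 6 with array weights, 0 after median scaling, 0 with no further normalization, 0 with the beta-actin covariate and 0 to 2 with 1 array left out. With 2 FVBN control arrays, leaving out array 8177 or 8182 gave fewer calls here and over all tested probe sets, and leaves 1 array assumed to vary like the other groups. Sdhb and Cox7a2l lost their call in 4 of 31 settings each, Ndufb6 in 4, Ndufa6 and Ndufv3 in 2, Ndufb11 in 17, and Ndufa6 with Doxy in 9. No called gene changed sign in any of the 31 settings, no isoform pair crossed the threshold, and 184 values that had not passed changed sign. Counts of genes whose groups do not overlap, given above on quantile-normalized and deposited values, were also taken after median scaling. These alternatives were chosen after seeing the data. Without Doxy 37 were lower and 0 higher, where 8.41% and 4.83% of all tested probe sets did so. With Doxy in both genotypes 0 were lower or higher, where 2.62% and 7.02% did so. For Doxy in FVBN 30 were lower and 2 higher, where 15.3% and 9.7% did so. No paired analysis was possible because the groups share no replicate numbers.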

Other observations

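The array with no group, titled Cardiac tTA expression, read within the range of the 19 arrays with a group for 71 of the 72 respiratory chain genes. Ndufb5, a membrane-arm subunit of complex I, was the exception, at a deposited intensity of 3890 against 3274 to 3870. The array read 1072 for Cox6a1, above the 692 to 869 of tTA and just above the 977 to 1064 of FVBN + Doxy, 411 for Ndufa6, 620 for Ndufv3, 2017 for Sdhb and 579 for Cox7a2l. Of the 7 genes that fell in tTA, 6 were above the highest tTA array on it and 5 were below the lowest FVBN control array.

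Among the 7 genes too dim to be tested, the log2 differences of tTA from FVBN control ran from -0.13 for Ndufs4 to 0.11 for Ndufa12. Ndufs4 was at -0.17 in tTA + Doxy against FVBN + Doxy. In the fit over all probe sets it was the 1 respiratory chain gene that passed there (limma), as lower, where 2.29% of all passed. On deposited values it read 37.6 to 38.4 in FVBN control and 33.8 to 36.3 in tTA. With Doxy it read 37.1 to 41.1 in FVBN and 32.8 to 35.2 in tTA. Neither pair of groups overlapped, where 7.5% and 2.78% of all tested were lower in this way.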
